A study of Mus musculus with 4 samples.

Results

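The comparison set the culture that received the kinase inhibitor SB431542 and then TGF-beta2 against the culture that received nothing. It used 2 of the series' 4 arrays and, of 45101 probe sets, the 34945 that are no array controls and carry 1 gene symbol. The 4 cultures were palatal mesenchymal cells, the connective tissue cells that fill the developing palatal shelves, isolated from wild-type embryos of outbred mice at stage E14.0. The untreated culture had neither inhibitor nor growth factor. The culture treated with SB431542 was exposed to it for 60 minutes and then stimulated with TGF-beta2 for 120 minutes. The remaining arrays, TGF-beta2 alone for 120 minutes and 5Z-7-Oxozeaenol (a Tak1 kinase inhibitor) for 60 minutes before TGF-beta2 for 120 minutes, are given below only as levels beside this comparison. There was 1 array per condition, so there is no spread between replicates, no test and no p-value, and every difference is between single cultures. No array had SB431542 without TGF-beta2, so an effect of the inhibitor by itself and a response to TGF-beta2 that escaped it cannot be told apart.

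TGF-beta ligands assemble type I and type II receptor kinases, and the type I kinase phosphorylates Smad2 and Smad3, which enter the nucleus and act on target promoters. The same receptors also feed into MAP kinase pathways. SB431542 blocks the kinases encoded by Tgfbr1, Acvr1b and Acvr1c, which serve TGF-beta, activin and nodal ligands, and largely spares the BMP type I receptors. Cultured mesenchymal cells can make their own TGF-beta and activin, and a blocked receptor could then leave targets below the untreated level. Whether this happened here was not tested. The comparison asks which transcripts lay above the untreated level despite the inhibitor and which lay under it.

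Transcripts of the inhibitor's targets and of the ligands mostly read at similar levels in both cultures, which does not show ligand or receptor activity. Tgfbr1 read 3561 untreated and 3147 with SB431542 and TGF-beta2. Acvr1b read 579 and 542 in the same order, and Acvr1c was near the lower limit used here, with 72.6 and 101. The other probe sets of Acvr1c were under that limit, at 10.5 and 37.6 and at 7.43 and 14.5. Among ligands, Inhba, which encodes the activin A subunit, read 10201 and 10557, and Tgfb1 read 534 and 447. None of the 19 measured receptors and Smads differed by 1.5-fold. Of 20 measured ligands and ligand regulators, Inhbb, an activin B subunit, differed by 1.5-fold, from 541 to 874.

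Both arrays had similar 3′ to 5′ signal ratios. That of Gapdh was 0.851 on the untreated array and 0.853 on the SB431542 array, and that of Actb was 0.984 and 1.00. The 4 hybridization spike-ins read 1.06 to 1.24 times higher on the SB431542 array. Of the other control probe sets, dap read 784 untreated and 998 with SB431542, thr 203 and 290, lys 114 and 121, and phe 242 and 220. All 14 mesenchymal markers were measured and within 1.5-fold, among them Pdgfra, a growth factor receptor of these cells, at 3643 and 3835. Macrophage transcripts were abundant in both cultures, with summed signals of 97229 untreated and 96958 with SB431542 over 16 measured markers, all within 1.5-fold. Of 12 endothelial and 14 skeletal muscle markers, 4 each passed the lower limit, and Pecam1, Cdh5 and Myog did not. The measured endothelial markers summed to 683 untreated and 900.1 with SB431542, with a median log2 difference of 0.37, and the muscle markers to 1392 and 1731, with a median of 0.15. The 12 measured epithelial markers summed to 2922 and 2968, and the 5 measured neural markers to 2737 and 2772. Sox10, a marker of Schwann and neural crest cells, was below the lower limit.

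Few genes separated the cultures by a large factor. Probe sets entered when their average log2 level across the series was no lower than that of the median non-control probe set, a signal of 66.1, called the filter level below. The brightest such probe set stood for its gene. Of 11744 genes, 55 (0.468%) exceeded untreated by 2-fold or more with SB431542 and TGF-beta2, and 45 (0.383%) were at least 2-fold lower. At 1.5-fold these counts were 348 (2.96%) and 282 (2.40%). The middle 90% of genes lay between −0.46 and 0.46 on the log2 scale, with a median of −0.01. Most large differences were in dim genes. In 36 of the 55 higher and 26 of the 45 lower genes, one of the 2 signals was under the filter level, and 19 genes in each direction had both signals at or above it. Before any filter, 1006 of the 34945 probe sets (2.88%) were 2-fold higher and 571 (1.63%) 2-fold lower, against 124 (0.618%) and 80 (0.399%) of the 20064 that passed it. Centring each array on its median moved all genes by −0.10 and gave 39 higher and 68 lower genes.

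**Figure D1:**
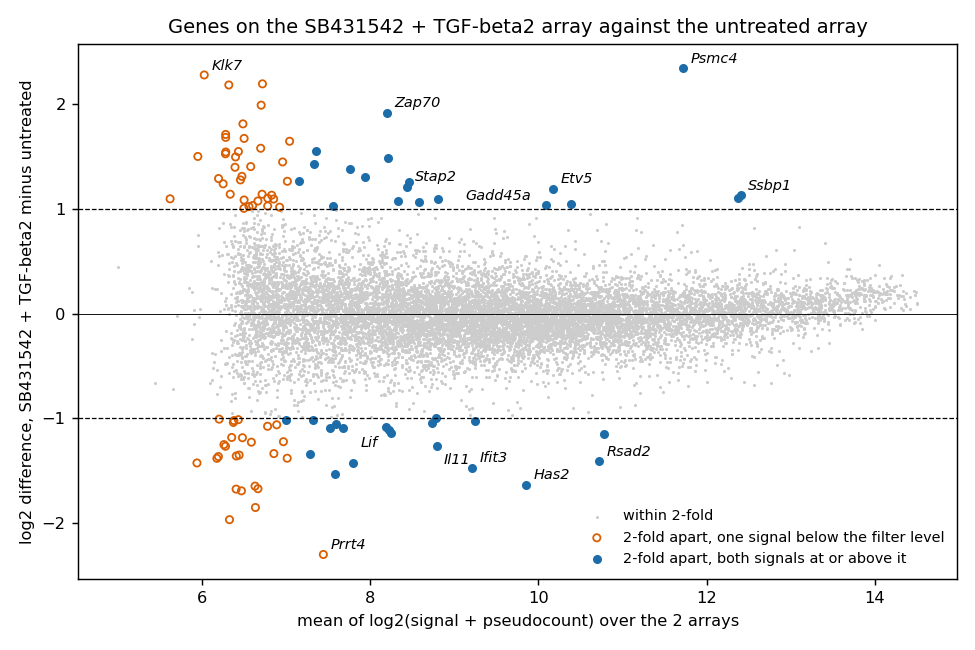
Each point is 1 of 11744 genes, with its mean log2(signal + pseudocount) over the untreated and SB431542 arrays on the x axis and the log2 difference, SB431542 and TGF-beta2 minus untreated, on the y axis; dashed lines mark 2-fold. Open circles, with one signal below the filter level, crowd at low signal, and the filled circles at higher signal include Has2, Il11, Rsad2 and Ifit3 below the lower line and Etv5 and Psmc4 above the upper one.

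The bright genes that lay lowest under the untreated level included known TGF-beta targets. Has2, the main synthase of hyaluronan, a swelling polysaccharide of the palatal shelf matrix, read 1606 in the untreated culture and 3631 after TGF-beta2, against 503 after SB431542 and TGF-beta2 and 400.1 after 5Z-7-Oxozeaenol and TGF-beta2. It was 3.10-fold lower with SB431542 than untreated, and its second probe set went from 893 to 332. Il11, a cytokine of the Il6 family, read 663 untreated, 2736 with TGF-beta2 and 265 with SB431542, which is 2.39-fold under untreated. Lif, another cytokine of that family, read 404 untreated, 1931 with TGF-beta2 and 179 with SB431542, 2.12-fold under untreated. For these 3 genes the SB431542 reading was under the untreated one, while TGF-beta2 alone was above it. In RNA from whole cultures, fewer cells of a type and less RNA per cell cannot be told apart. Ldlrad4, a membrane protein that restrains Smad phosphorylation, read 277 untreated, 347 with TGF-beta2 and 119 with SB431542. Its second probe set above the filter level read 226 untreated and 123 with SB431542.

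The promoters of Il11 and Lif are shown because both genes lay under the untreated level with SB431542 and TGF-beta2. Smad and AP-1 factors are known to act together at such genes. RefSeq's windows on GRCm38.p6, from 250 bases before to 50 after the annotated start, are at chr7:4778092-4778391, minus strand, for Il11 and at chr11:4257318-4257617, plus strand, for Lif. Capitals mark the AP-1 motif TGANTCA and the Smad box CAGAC or its reverse complement GTCTG, searched on both strands, and no matches of the 2 motifs overlap in these windows.
Il11: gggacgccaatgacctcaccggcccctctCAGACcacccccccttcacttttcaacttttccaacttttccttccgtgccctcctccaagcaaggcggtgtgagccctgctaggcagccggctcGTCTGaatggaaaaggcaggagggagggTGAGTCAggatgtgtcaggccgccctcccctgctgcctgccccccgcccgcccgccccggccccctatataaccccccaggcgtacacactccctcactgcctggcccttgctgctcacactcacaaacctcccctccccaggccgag
Lif: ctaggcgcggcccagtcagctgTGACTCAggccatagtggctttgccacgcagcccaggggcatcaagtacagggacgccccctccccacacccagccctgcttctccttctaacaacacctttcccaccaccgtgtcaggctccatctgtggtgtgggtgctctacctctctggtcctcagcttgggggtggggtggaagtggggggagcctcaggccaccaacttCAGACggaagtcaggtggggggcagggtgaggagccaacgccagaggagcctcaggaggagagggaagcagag
The AP-1 match began 98 bases before the start in Il11 and 228 bases before it in Lif. The table held 2 windows for Il11, and the one with the AP-1 match is printed. AP-1 matches were found in 7.81% of all 32851 promoter windows, while the short Smad box was in 49.6% of them. Of 29 measured Smad targets with a window, 3 had an AP-1 match, namely Il11, Lif and Sphk1. A match is a string of letters and no evidence of binding, and no window was in the table for Has2 or Ldlrad4.

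Across the list of Smad feedback genes and direct targets, 43 of 46 were measured. At 2-fold, 3 were lower (Il11, Ldlrad4 and Lif) and 0 higher, and at 1.5-fold 8 (18.6%, against 2.40% of all genes) were lower and 0 higher. The list's median was −0.24 on the log2 scale, against −0.01 for all genes. This list and all others of the 28 were written with earlier results of these arrays known. Their counts are therefore no independent evidence of a direction. Pmepa1, which sequesters receptor-activated Smads, read 7599 untreated, 10413 with TGF-beta2 and 4746 with SB431542, and its other probe sets went from 3071 to 1637 and from 1090.5 to 604. Skil, a Smad corepressor, read 2821 untreated, 4677 with TGF-beta2 and 1749 with SB431542, but its dim probe set read 91.8 and 118 in untreated and SB431542. Sphk1, a sphingosine kinase, read 789.9 untreated, 1928 with TGF-beta2 and 414 with SB431542, and its dim probe set also went the other way, from 114 to 150.4. Nox4, an NADPH oxidase, read 181.5 untreated and 99.2 with SB431542, and Trib1, a pseudokinase gene, 189 and 118.

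Several classical targets were under 1.5-fold. Smad7, the inhibitory Smad that closes the feedback loop, read 1810.2 untreated, 2317 with TGF-beta2 and 1220.1 with SB431542, a log2 difference of −0.56 from untreated. Junb, an AP-1 subunit, read 468, 1222 and 315 in the same order. Ccn2 and Ccn1, matricellular proteins, were close to untreated with SB431542, at log2 differences of 0.17 and 0.07. Snai2, a repressor tied to mesenchymal identity, had the highest value of the list, from 6599 untreated to 9145 with SB431542, and it read 3238 with TGF-beta2 alone.

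**Figure D2:**
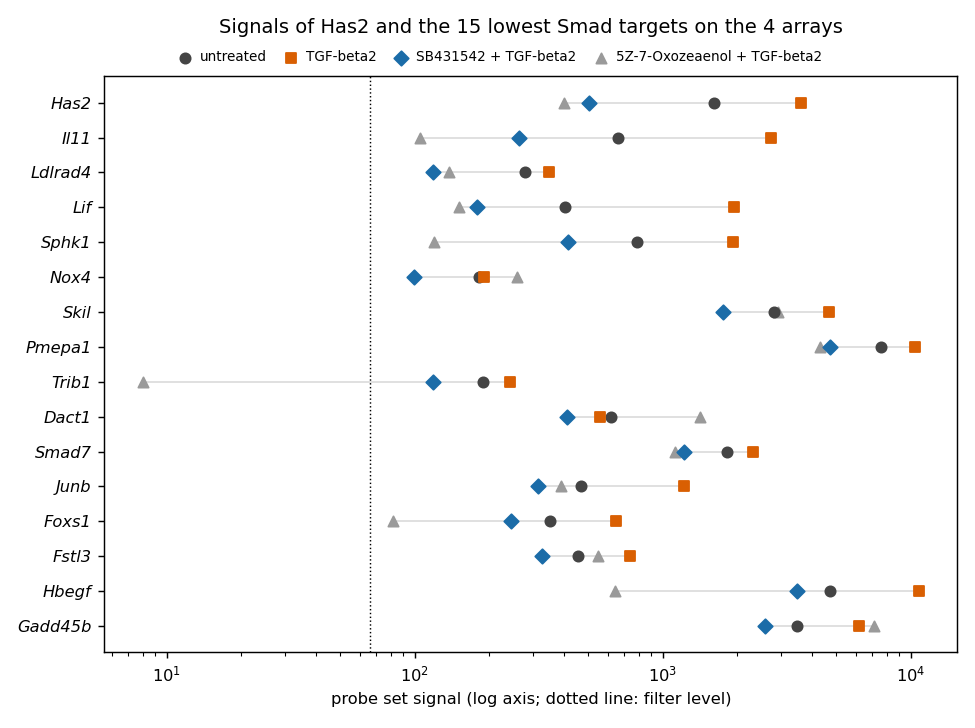
Probe set signal on a logarithmic x axis for Has2 and the 15 Smad targets with the lowest difference between SB431542 and untreated, 1 symbol per array; the dotted line is the filter level. For Has2, Il11, Lif, Sphk1, Skil, Pmepa1 and Smad7 the SB431542 symbol is left of the untreated one and the TGF-beta2 symbol right of it.

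Hyaluronan synthases apart, the matrix was level between the cultures. Of 29 measured matrix genes, Has2 was at least 2-fold lower, Has1 read 114.9 untreated and 63.4 with SB431542, and the other 27 were within 1.5-fold. Col1a1, the main fibrillar collagen, read 10690.3 and 12636, and Postn, periostin, 15934 and 16679. All 19 measured contractile and SRF target genes were within 1.5-fold by their brightest probe set, with smooth muscle actin, Acta2, at 18162 and 18919.8. For Actn1, of the same list, a dimmer probe set went from 1220 to 666. Its brightest read 12215 and 12678, and its other one 579 and 690. Of 15 YAP and TEAD targets, Lats2, a Hippo pathway kinase, was 1.5-fold higher, from 1331 to 2170, and its 4 probe sets did not all differ in the same direction.

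For the 12 largest increases and 8 largest decreases with TGF-beta2 alone, the SB431542 readings are set beside the others. They cannot separate what remained of the response from an effect of the inhibitor by itself. Both comparisons share the untreated array, so a reading far off there enters both, and the values are given side by side with no measure of their overlap. TGF-beta2 alone put 79 genes (0.673%) at least 2-fold above untreated and 43 (0.366%) below it. Fgf21, a metabolic hormone, read 111 untreated, 1055 with TGF-beta2 and 57.2 with SB431542. Egr2, an early response transcription factor, read 461, 3154 and 236 in the same order, a log2 difference of −0.91 from untreated. Rasl11b, a Ras-like GTPase, read 454, 2424 and 345, and Wnt9a, a Wnt ligand, 173, 687 and 91.3. AI504432 read 42.7, 216 and 32.7, and Asprv1, an epidermal protease gene, 5.96, 87.1 and 15.8. In these genes and in Il11 and Lif the SB431542 signal was within 2-fold of untreated or under it on the log2 scale used.

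The other 4 of the 12 largest increases were high on the SB431542 array as well. Psmc4, a proteasome ATPase subunit, read 1477 untreated, 8353 with TGF-beta2, 7567 with SB431542 and 7909 with 5Z-7-Oxozeaenol. Its second probe set read 3240.4, 3376, 3623 and 3449 in that order, which is level. Klk7, an epidermal protease gene, read 8.002 untreated, 109 with TGF-beta2, 122 with SB431542 and 172 with 5Z-7-Oxozeaenol. Magea7-ps read 15.2, 134, 82.5 and 101, and Cep126, a centrosomal protein gene, 15.9, 104, 149 and 138. In each of these 4 the untreated array was the low one and the 3 stimulated arrays were alike, and single low readings on the untreated array were not tested.

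Of the 8 genes lowest with TGF-beta2 alone, Dus2 and Ifit1bl1 were more than 1.5-fold under untreated with SB431542, and the other 6 were within that range. Irs1, an adaptor of insulin signalling, read 1073 untreated, 331 with TGF-beta2 and 1303 with SB431542. Ccl3, a macrophage chemokine, read 2646, 466 and 1838, so that SB431542 left it at a log2 difference of −0.52 from untreated. Dus2 read 238, 44.9 and 127, Nxpe3 183, 34.6 and 140.5, Ifit1bl1 184, 34.9 and 114, and Cdh3 174, 34.4 and 121. Mm2pr read 143, 30.8 and 176, and Col4a3 120.2, 24.3 and 93.7. Apart from Irs1 and Ccl3, their TGF-beta2 readings were under the filter level.

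**Figure D3:**
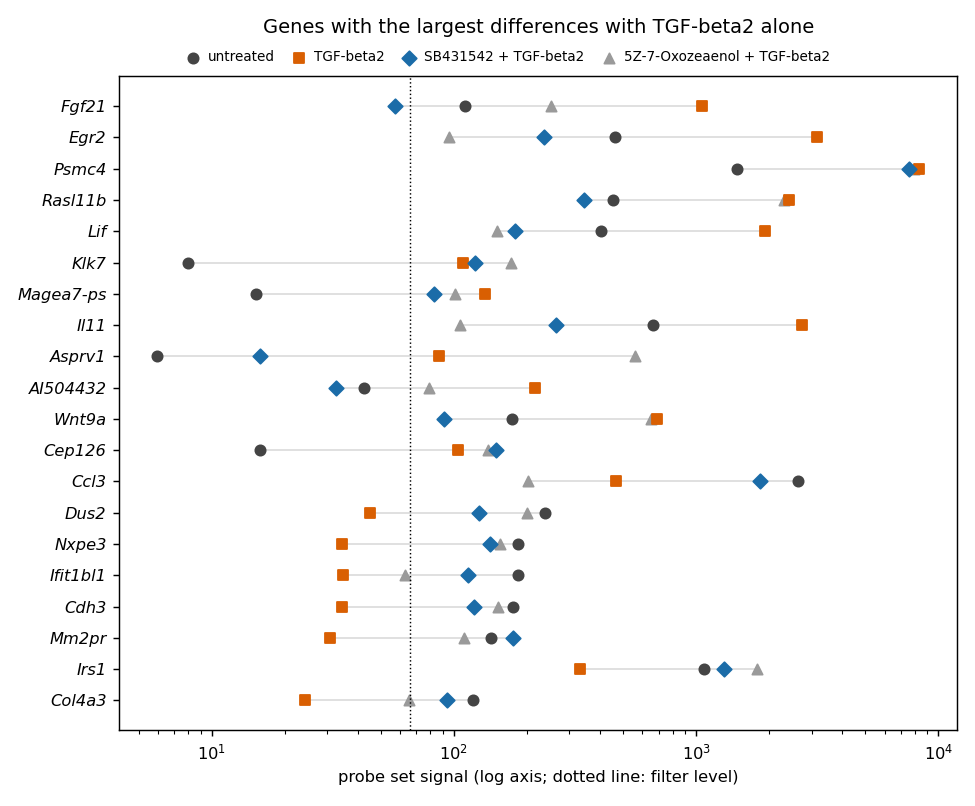
Probe set signal on a logarithmic x axis for the 12 largest increases (top) and the 8 largest decreases (bottom) with TGF-beta2 alone, 1 symbol per array; the dotted line is the filter level. The SB431542 symbol lies beside the untreated one for Rasl11b and Irs1, and far right of it for Psmc4, Klk7, Magea7-ps and Cep126.

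Most early response genes and MAP kinase feedback genes were within 1.5-fold of untreated with SB431542 and TGF-beta2. Of 24 measured immediate early genes, 0 differed by 2-fold, and 17 were below 0 on the log2 scale and 7 above. At 1.5-fold, 2 (8.33%, against 2.40% of all genes) were lower, Egr2 and Ier5 (3103 to 2046), and 0 higher. Centring on the median gave 4 lower ones. Egr1 read 4389 untreated, 10257 with TGF-beta2 and 5195 with SB431542. Of 19 MAP kinase feedback genes, Dusp4, a phosphatase of MAP kinases, was at least 1.5-fold lower, from 470.3 to 250.03, with 964 under TGF-beta2 alone. Etv5, an ETS factor downstream of FGF and ERK signalling, was the 1 member at least 2-fold higher. It read 742 untreated, 1189 with TGF-beta2, 1725 with SB431542 and 488 with 5Z-7-Oxozeaenol, so the SB431542 array was the highest of the 4. Its dimmer probe sets went the same way, from 78.2 to 129 and from 108 to 162, and the mean of its 3 probe sets, 0.76 on the log2 scale, was under 2-fold.

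Of 25 measured growth factor and cytokine genes, 4 (16%, against 2.40% of all genes) were at least 1.5-fold lower, Il11, Lif, Fgf21 and Il6 (331 untreated, 1095 with TGF-beta2, 210.3 with SB431542), and Fgf10, a palate epithelial growth signal, was higher, from 64.2 to 111. Vegfa, the vascular growth factor, read 2854 untreated, 7433 with TGF-beta2 and 2397 with SB431542. Of 26 NF-kappaB and inflammatory genes, 3 (11.5%, against the same 2.40%) were at least 1.5-fold lower, namely Cxcl10 (698 to 385), Bcl3 (355 to 198) and Il6, and 0 were higher. Centring on the median gave 6 lower ones. Ptgs2, prostaglandin synthase, read 9842 untreated and 6571 with SB431542, just under 1.5-fold.

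Most BMP targets and palate regulators were likewise within 1.5-fold of untreated. BMP signals run through other type I receptors and induce the Id genes, which inhibit differentiation factors. Of 14 measured BMP and Id targets, 0 differed by 2-fold and Id4 was at least 1.5-fold higher, from 1848 untreated to 2859 with SB431542, against 697 with TGF-beta2 alone. Id3 read 8378 untreated, 4935 with TGF-beta2 and 10158 with SB431542. The list median was 0.09 on the log2 scale and turned to −0.01 when each array was centred on its median, which left 0 members 1.5-fold higher and 2 lower. The mean of probe sets gave 0 higher and 1 lower. Of 28 measured palatal mesenchyme regulators, Osr1, a shelf transcription factor, had the largest difference, reading 496 untreated, 176 with TGF-beta2, 953 with SB431542 and 667 with 5Z-7-Oxozeaenol. Osr1 and Fgf10 were at least 1.5-fold higher (7.14% of the list, against 2.96% of all genes). Of the 28, 0 were 1.5-fold lower, and Mn1, needed for palate growth, read 1263 and 858. With centring on the median, 1 was higher and 2 lower. Of 10 measured BMP ligands and antagonists, 2 (20%, against 2.40% of all genes) were at least 1.5-fold lower and 0 higher. Gdf10 was at least 2-fold lower, from 97.4 to 36.3, and Chrdl1 read 119 and 62.6, with both SB431542 signals under the filter level.

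Of 19 Wnt targets and regulators, 3 (15.8%, against 2.40% of all genes) were at least 1.5-fold lower and 1 higher. Lef1, a transcription factor of the Wnt pathway, read 238 untreated, 299.97 with TGF-beta2, 119 with SB431542 and 123 with 5Z-7-Oxozeaenol. Wnt9a and Wif1 (312 to 199.5) were the other lower ones and Apcdd1 (259 to 427) the higher one, with probe sets of Apcdd1 that differed in direction. Of 12 skeletal genes, 2 (16.7%, against the same 2.40%) were at least 1.5-fold lower, Runx1 and Col9a1, and 0 were higher. Runx1, a skeletal and blood transcription factor, read 1846 untreated, 4360.1 with TGF-beta2 and 979 with SB431542. Of its 6 probe sets, 1 dim one went the other way, from 68.9 to 103. Col9a1, a cartilage collagen, read 131 and 71.0.

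Interferon-stimulated genes had the lowest median of the 28 lists. These genes encode antiviral proteins and are switched on by interferon through Stat and Irf factors at interferon-stimulated response elements. Of 27 listed, 23 were measured, and with SB431542 3 lay at least 2-fold under untreated. At 1.5-fold, 10 (43.5%, against 2.40% of all genes) were lower and 0 higher. This list too was written with earlier results of these arrays known, so its count is no independent evidence of a direction. Rsad2, the antiviral enzyme viperin, read 2729.8 untreated, 1268 with TGF-beta2, 1016 with SB431542 and 769.8 with 5Z-7-Oxozeaenol. Its other probe sets went from 1119.97 to 446 and from 417 to 243 between untreated and SB431542. Ifit3, an inhibitor of viral RNA translation, read 964.5, 460.2, 335 and 376 in the order of the arrays for Rsad2. Cmpk2, a nucleotide kinase gene next to Rsad2 in the genome, read 416, 288, 181 and 182. For all 3 genes the untreated array was the highest of the 4, and the TGF-beta2 array lay between it and the 2 inhibitor arrays.

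The list's median difference from untreated was −0.54 with SB431542 and TGF-beta2, −0.49 with TGF-beta2 alone and −0.57 with 5Z-7-Oxozeaenol and TGF-beta2, on the log2 scale. The 3 values share the untreated array. Of all genes, 289 (2.46%) were at least 1.5-fold lower with TGF-beta2 alone and 617 (5.25%) with 5Z-7-Oxozeaenol and TGF-beta2. Usp18, a brake on interferon signalling, read 1184 untreated and 626 with SB431542, Ifit1 927 and 502, Ifit2 771 and 400.2, and Irf7, a transcription factor of the response, 560.3 and 347. Stat2, a transducer of interferon signals, was near the filter level at 68.9 and 94.8. Macrophages also express many of these genes. Of the 16 macrophage markers, 12 were below 0 and 4 above, with a list median of −0.09 on the log2 scale. The lowest was Cd14, a receptor for bacterial lipopolysaccharide, at 3168 untreated and 2404 with SB431542, and Adgre1, an adhesion-type receptor of macrophages, read 4183 and 3434. Csf1r, the receptor for macrophage growth factor, read 8693 and 8224, and its other probe sets went from 3813 to 2880.5 and from 1095 to 1126. The part of these markers in the interferon-stimulated genes' difference was not tested.

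The promoters of Rsad2 and Ifit3 are shown because these genes had the largest differences of the list. The windows are at chr12:26456403-26456702, minus strand, for Rsad2 and at chr19:34583279-34583578, plus strand, for Ifit3, on GRCm38.p6 from RefSeq. Capitals mark the response element motif, which is TTTC, any 2 bases and TTTC, or on the other strand GAAA, any 2 bases and GAAA.
Rsad2: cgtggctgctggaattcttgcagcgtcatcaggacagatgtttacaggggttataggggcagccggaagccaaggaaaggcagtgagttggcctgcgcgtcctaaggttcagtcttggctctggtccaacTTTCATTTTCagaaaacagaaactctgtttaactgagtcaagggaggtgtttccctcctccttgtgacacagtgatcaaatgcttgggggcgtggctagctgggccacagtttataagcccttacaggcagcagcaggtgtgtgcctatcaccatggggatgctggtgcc
Ifit3: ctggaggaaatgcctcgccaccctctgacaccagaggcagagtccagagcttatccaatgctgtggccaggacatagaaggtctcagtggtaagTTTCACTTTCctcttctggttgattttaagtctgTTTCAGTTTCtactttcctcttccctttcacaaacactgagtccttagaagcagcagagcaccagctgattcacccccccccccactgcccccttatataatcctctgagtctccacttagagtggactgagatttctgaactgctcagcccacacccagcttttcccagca
The match began 120 bases before the start in Rsad2, and in Ifit3 matches began 156 and 122 bases before it. Such a match was in 3.44% of all promoter windows, and 12 of the 19 measured list members with a window had one. Of the 9 members with a window that were at least 1.5-fold lower, 4 had a match, Ifit1, Ifit3, Rsad2 and Cxcl10, so a lower signal was also seen in members without these letters in the window.

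**Figure D4:**
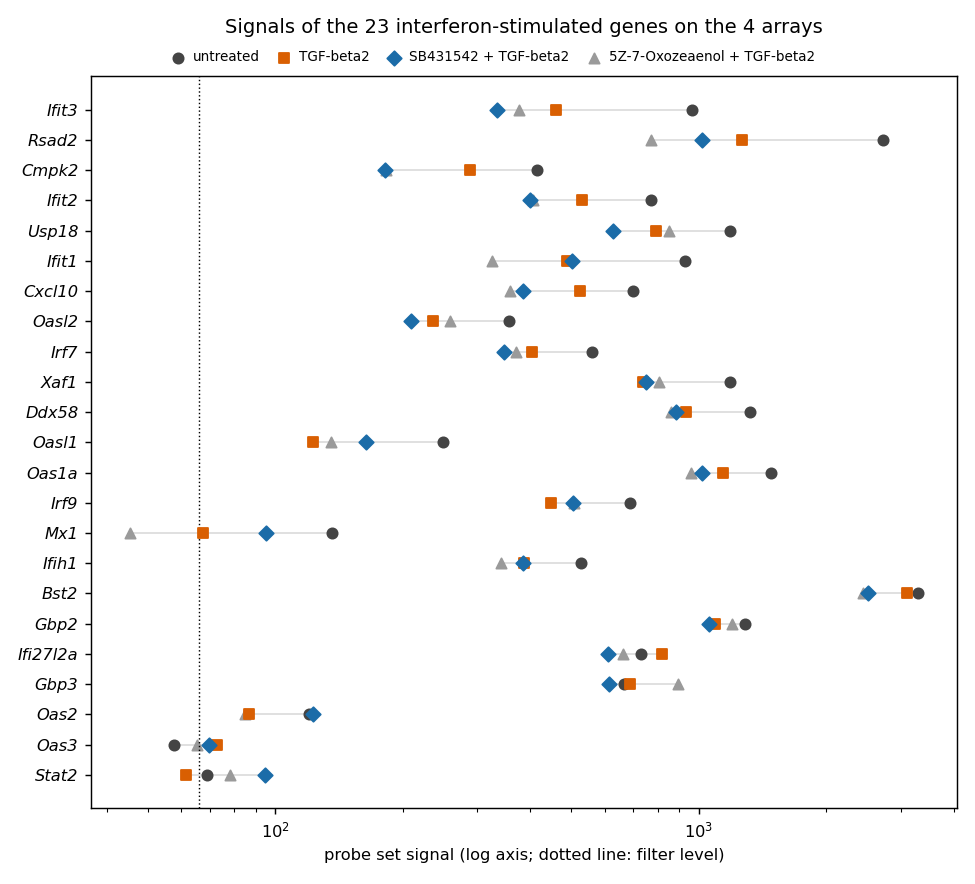
Probe set signal on a logarithmic x axis for the 23 measured interferon-stimulated genes, ordered by the difference between SB431542 and untreated, 1 symbol per array; the dotted line is the filter level. From Ifit3 at the top down to Gbp2 the untreated symbol is the rightmost of each row, and Stat2 at the bottom is close to the filter level.

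Of the 397 measured members of the pathway lists, 2 exceeded untreated by 2-fold or more, a share near the 0.468% of all genes. They were Etv5, described above, and Gadd45a, a stress-induced growth arrest gene that read 741 untreated, 1032 with TGF-beta2, 1543 with SB431542 and 1349.7 with 5Z-7-Oxozeaenol. Gadd45a was the 1 of 15 p53 targets that was at least 1.5-fold higher, and the other 14 were within that range. Zap70, a kinase of lymphocyte receptors, read 130.1, 429.6, 551 and 282 in the same order of arrays, and its 2 probe sets under the filter level stayed below 50 on every array. Macroh2a3, a histone variant gene, read 74.4, 119, 259.95 and 239.7. Bright genes outside the naming rule, chosen after their values were seen, were Lrrc58 (3588 to 7739), Ssbp1 (3642 to 8001) and Stap2 (207 to 507). Lrrc58 read 7622 with TGF-beta2 and Ssbp1 6897, whereas Stap2, a signalling adaptor, read 218 with TGF-beta2 and 196 with 5Z-7-Oxozeaenol and was high on the SB431542 array alone. The second bright probe set of Ssbp1 went from 3042 to 2720.4.

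Most of the other large increases started from signals under the filter level. Those that follow are among the 20 largest whose probe sets that passed the filter went in the same direction. 2610316D01Rik read 27.7 untreated and 204 with SB431542, Gsdma2 30.7 and 186, and Gimap3 52.97 and 212. Gm11110 read 26.3 and 147, Slc4a8 21.4 and 119, and C1ql1 29.2 and 140.3. Cysrt1 read 38.5 and 158, Dcaf4 29.0 and 126, Amelx, an enamel protein gene, 24.05 and 111, Gm12596 24.2 and 110.3, Slc5a2 28.7 and 120.2, Spaca3 53.8 and 184, Retn 37.2 and 134, and 1810064F22Rik 21.9 and 118. All 14 were below the filter level when untreated, and the pseudocount bears on how large their differences are. Of the higher genes, 12 were read by several probe sets, and 0 of their 17 further probe sets were 2-fold higher, with a median of 0.16 on the log2 scale.

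The largest decreases were of the same kind on the other side. Prrt4 was lowest, at 365 untreated, 323 with TGF-beta2, 56.9 with SB431542 and 129 with 5Z-7-Oxozeaenol, and its second probe set read 116 and 101 in untreated and SB431542. Trp53i11 read 137 untreated and 19.0 with SB431542, Hoxa9 167 and 30.8, Hoxc6 138 and 27.7, Pigz 159.8 and 35.3, AW047730 153.9 and 34.4, and D930048N14Rik 130.1 and 25.9. Mdfi, an inhibitor of myogenic factors, read 79.2 and 15.9, Sp6 95.3 and 23.3, Ica1 187 and 58.5, Abtb1 96.1 and 24.1, Col25a1 114.6 and 31.5, Tmem40 117 and 32.9, and Zbed5 162 and 51.3. In all of these the SB431542 signal was under the filter level. Megf10, a receptor for engulfment, stayed above it, at 342 and 114, as did Abca7 (227 and 76.7) and Gm11517 (305 and 90.9). Slco4a1, an organic anion transporter chosen after its values were seen, read 428 untreated, 769.7 with TGF-beta2, 182.98 with SB431542 and 109 with 5Z-7-Oxozeaenol. Of the lower genes, 9 were read by several probe sets, and 2 of their 11 further probe sets were 2-fold lower, with a median of −0.45.

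The remaining lists held few differences. Of 26 cell cycle genes, Ccne1, cyclin E, was at least 1.5-fold higher, from 1412 to 2154, and 25 were within that range. Of 20 heat shock and endoplasmic reticulum stress genes, Bag3, a chaperone partner, was lower, from 4021 to 2582, and it read 5634 with TGF-beta2 alone. Of 10 antioxidant genes under Nrf2, Gsta4 was higher (334 to 526). Of 16 genes of cholesterol synthesis and oxysterols, Ch25h, which makes 25-hydroxycholesterol, was higher, from 1309 untreated to 2379 with SB431542, with 2939 under TGF-beta2 and 184 with 5Z-7-Oxozeaenol. Centring on the median also put 2 genes of that list 1.5-fold lower and left 0 of the cell cycle and Nrf2 genes 1.5-fold higher. All 10 measured housekeeping genes were within 1.5-fold, with a median of 0.15, or 0.05 after centring on the median. Krt14, a basal keratin, was the 1 of 12 epithelial markers at least 1.5-fold higher, from 141 to 275, and its probe sets differed in direction. Probe sets with several symbols or none, which are not named here, numbered 2455 above the filter level, of which 14 (0.570%) were 2-fold higher and 15 (0.611%) 2-fold lower.

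**Figure D5:**
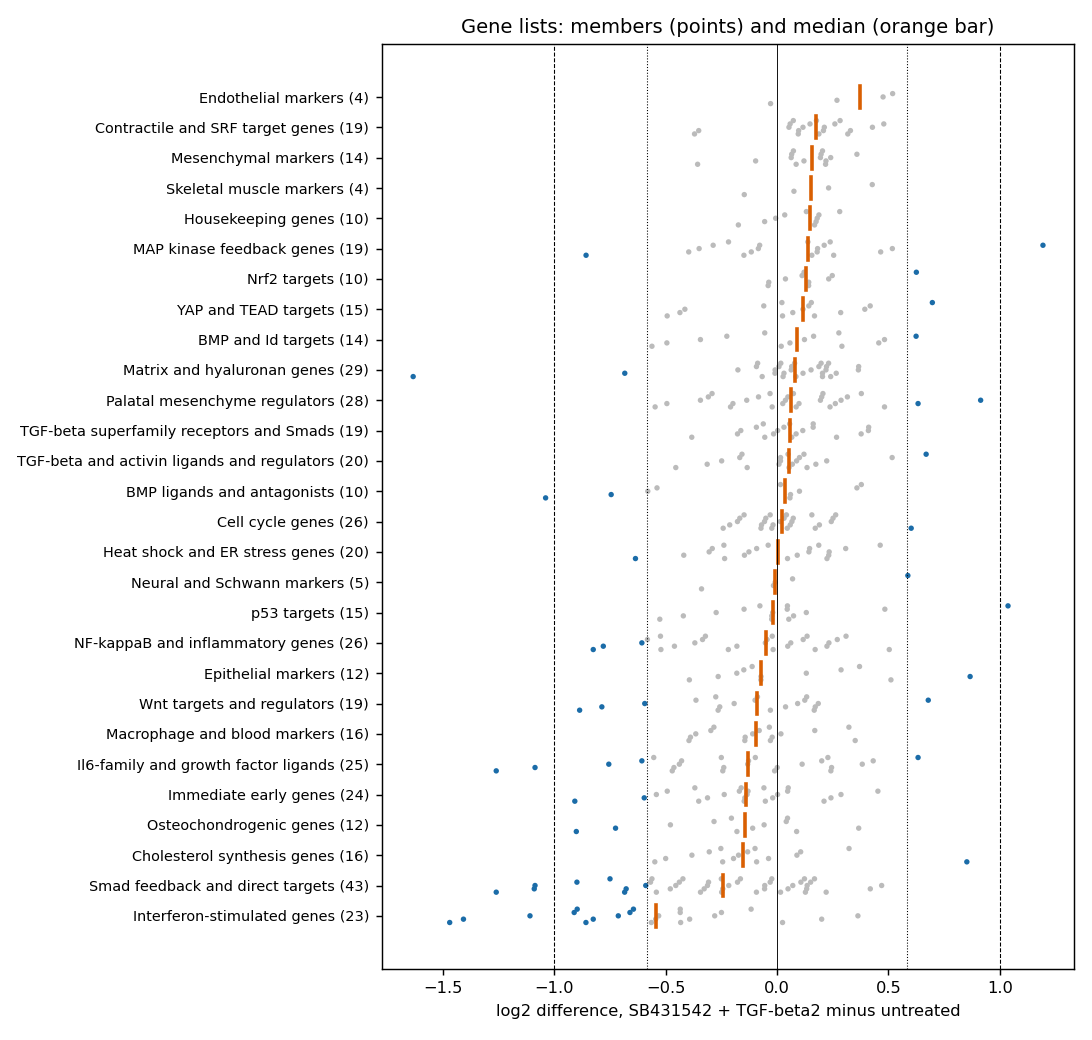
Each point is a measured gene of 1 of 28 lists, with the number measured in brackets, placed by its log2 difference, SB431542 and TGF-beta2 minus untreated; orange bars are list medians, dotted lines 1.5-fold and dashed lines 2-fold. Interferon-stimulated genes, with a median of −0.54, and Smad targets, with −0.24, have the lowest medians, and the other lists lie between −0.15 and 0.37.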

How the data were processed

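RNA from 4 cultures was measured on 1 Affymetrix 3′ expression array each, from 500 ng of total RNA per the labels' protocols. The deposited values are probe set intensities on a linear scale, and GCOS is named in the submitters' processing notes, while no source used here gives its version, algorithm or settings. With the lowest and highest 2% set aside, each array's deposited intensities averaged 500.0, so the authors had scaled the arrays to a common level, which assumes equal average abundance. Of 45037 non-control probe sets, 34945 had 1 symbol in the platform annotation, 932 had several and 9160 had none, and 34741 of the 34945 matched a RefSeq gene identifier, which changed 0 symbols. Intensities were converted to log2(value + 21.7), with the pseudocount at the 25th percentile, using Python 3.11.15 and pandas 2.3.3. Folds are on this scale and understate differences of dim genes. The filter left 20064 probe sets of 11744 genes, 5121 of them with at least 2 probe sets. With 1 array per group, their number limits the precision, and genes were counted by size only. Counting was tested on simulated data with large changes in bright genes and small noise, so that test does not cover dim genes.

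The text names, by rule, up to 20 genes in each direction, by size among those past 2-fold. Genes with a probe set that passed the filter and went the other way were left out, while probe sets under the filter were not checked. Also named are list members past 2-fold with up to 4 further examples per list, the 12 largest increases and 8 largest decreases with TGF-beta2 alone, and the inhibitor's targets. List members past 1.5-fold were added after the values were seen. The members and the 28 lists were chosen with earlier results of these data known. Motif letters were searched in RefSeq promoter windows. Alternatives were other pseudocounts, filters, fold thresholds, quantile, median and loess scaling, and the mean of a gene's probe sets.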

Additional observations from a re-analysis of the deposited data

How the results depend on the processing

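No paired analysis was possible because each condition had 1 array. The counts of genes at least 2-fold higher and lower, 55 and 45, were 25 and 16 when the median served as pseudocount, 457 and 258 with no filter, 8 and 6 with the filter at the 75th percentile, 348 and 282 at 1.5-fold, and 11 and 8 at 3-fold. With both signals at or above the filter level, an alternative chosen after seeing the data, they were 19 and 19. Centring on the median gave 39 and 68. The pseudocount at the 10th percentile, quantile normalization, loess and the mean of probe sets left both counts within 1.5 times of these. The 10 interferon-stimulated genes at least 1.5-fold lower ranged from 8 to 13 over the alternatives, and the 8 Smad targets from 4, with the stricter filter, to 11, with centring; those alternatives were also chosen after seeing the data, and the cause was not tested. Of 47 named genes past 2-fold, 0 changed sign under the alternatives that kept them, and Has2, Il11, Ifit3, Rsad2 and Psmc4 stayed past 2-fold under all 8 alternatives of pseudocount, filter, scaling and probe sets. Of the 47, 28 stayed past 2-fold under every alternative that kept them. With that larger pseudocount 17 came under 2-fold, among the brighter ones Lif (−0.93), Cmpk2 (−0.95), Ldlrad4 (−0.88) and Gadd45a (0.99). The brightest probe set was picked anew under each setting. With the smaller pseudocount the other probe set of Slc4a8 stood for the gene, and its difference went from 1.71 to 0.35. With the mean of probe sets, Etv5 (0.76) and Ldlrad4 (−0.93) came under 2-fold, and with centring Gadd45a (0.93) did, while Egr2 reached −1.01. Signal over background limits most other calls, which rest on dim genes.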
